A study of Mus musculus with 8 samples.

Results

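The mitochondrial ribosomal protein genes are the nuclear genes for the proteins of the mitochondrial ribosome. They were taken as the protein-coding genes whose symbol begins with Mrpl (large subunit) or Mrps (small subunit) followed by a digit, which gave 78 of the 15609 genes in the deposited table. Of the 78, 77 encode ribosome subunits, 51 in the large and 26 in the small subunit. Mrps30 and Mrps18a were counted in the large subunit, where their proteins sit in spite of their names. The remaining gene, Mrps36, encodes a protein now known as a subunit of the 2-oxoglutarate dehydrogenase complex.

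The mitochondrial ribosome makes the few proteins that mitochondrial DNA encodes, which are core subunits of the respiratory chain and of ATP synthase. Its own proteins are all made from nuclear genes in the cytosol and imported, while its ribosomal RNAs are transcribed inside the organelle. In T cells, mitochondria grow when a cell leaves the resting state, and mitochondrial translation is needed for proliferation and effector function.

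RNA was sequenced in bulk from spleen CD8 T cells of wild-type C57BL/6 mice, enriched on anti-CD8 beads and then sorted. Virtual memory (VM) cells, which are memory-like cells that arise without a foreign antigen, were CD44hi CD49d-. They were divided by surface Ly6C and Sca-1. Ly6C- VM had 1 library of Sca-1+ and 1 of Sca-1- cells, and Ly6C+ VM had 2 libraries of each. True memory cells were CD44hi CD49d+ (1 library) and naive cells CD44- CD49d- (1). All 8 libraries were wild type and untreated as far as the labels say. The labels do not give age, sex or how many mice were pooled, so p-values measure only the spread between these libraries, which may be technical. The libraries of the Ly6C+ groups are called A (column without a suffix) and B (column with one), and values of such a pair are given as A and then B.

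Library totals were 49993407 to 63815914 counts, and the smallest count of any of the 78 genes was 386, so counting error was small for all of them. Levels of single genes are given as CPM, that is, counts divided by the library total after TMM scaling, a correction of that total for composition. CD8 T cell markers summed to 4217 and 3677 CPM in the Sca-1+ and Sca-1- libraries of Ly6C- VM, against 3684 to 4045 CPM in the 4 Ly6C+ VM libraries, and 0 of 6 passed the test (0 also at an unadjusted p under 0.05 in edgeR). Markers of other cells differed more between the VM libraries. All 3 measured CD4 T cell markers passed as higher in Ly6C- VM, and they summed to 55.7 and 13.8 CPM in the Sca-1+ and Sca-1- libraries of Ly6C- VM against 3.73 to 9.14 CPM in Ly6C+ VM. Dendritic cell and MHC class II markers passed in 8 of 9, at 226.6 and 332.0 CPM against 18.8 to 87.6 CPM. Plasma cell markers passed in 3 of 3 (65.7 and 45.7 CPM in Ly6C- VM against 26.7 to 33.7 CPM in Ly6C+ VM), B cell markers in 3 of 5 (32.7 and 23.8 against 14.1 to 16.3 CPM) and erythroid markers in 4 of 5 (35.4 and 13.0 against 3.51 to 19.8 CPM). Monocyte or macrophage markers passed in 1 of 9, at 111 and 64.3 CPM in Ly6C- VM against 13.5 to 156 CPM in Ly6C+ VM, and the 1 NK cell marker measured did not pass. Foxp3, Mzb1, Ncr1, Klre1 and Klra8 were not in the table, which lists no gene with a count of 0 in any library. The true memory library stood apart in the dendritic cell and MHC class II markers, at 5114 CPM, against 128 CPM in the naive library. The part of these cells in the levels below was not tested. In bulk RNA, more cells of a type and more RNA per cell cannot be told apart.

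Added over all 78 genes, mitochondrial ribosomal protein transcripts were most abundant in the Ly6C- Sca-1+ VM library. Their sum, as a share of the library total, was 2393 CPM there and 2111 CPM in Ly6C- Sca-1- VM. The Ly6C+ Sca-1+ libraries had 1819 (A) and 1962 CPM (B), and the Ly6C+ Sca-1- libraries 1801 (A) and 1891 CPM (B). True memory cells had 1956 CPM and naive cells 1903 CPM. Both Ly6C- libraries were thus above the other 6, and true memory and naive cells lay within the range of the 4 Ly6C+ libraries. With TMM scaling the sums were 2396 and 2031 CPM in the Sca-1+ and Sca-1- libraries of Ly6C- VM, 1873 to 1933 CPM in the 4 Ly6C+ libraries, 1938 CPM in true memory and 1883 CPM in naive cells. The mean of the Ly6C- groups was 1.21 times that of the Ly6C+ groups, and 1.17 times with TMM scaling.

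The Ly6C- Sca-1+ library held the highest of the 8 values for 63 of the 78 genes, against 20.4% of all genes tested, and the lowest for 0 of them. No other library was the highest for more than 3 genes. The lowest value was in Ly6C+ Sca-1- A for 19 genes, in Ly6C+ Sca-1- B for 17 and in naive cells for 16. Relative to each gene's own mean over the 8 libraries, the median gene stood at 0.29 on the log2 scale in Ly6C- Sca-1+ VM and at 0.05 in Ly6C- Sca-1- VM. In the other 6 libraries it stood between -0.10 and -0.02.

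**Figure D1:**
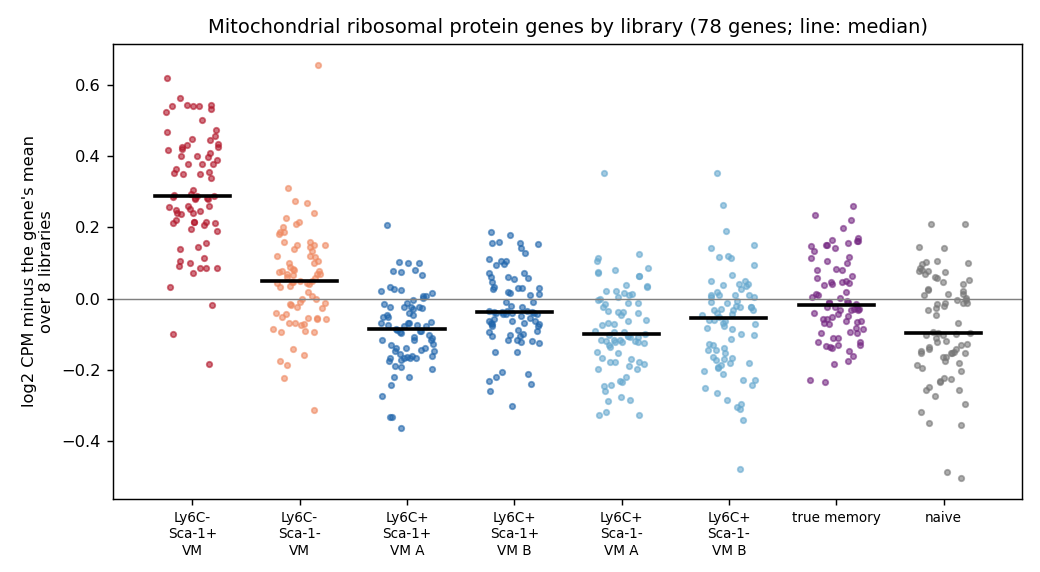
Each point is 1 of the 78 mitochondrial ribosomal protein genes in 1 library, as its log2 CPM minus its own mean over the 8 libraries, and the black line is the median of the genes. The median of the Ly6C- Sca-1+ library, 0.29, lies above those of the other 7, and that of Ly6C- Sca-1- VM, 0.05, is the next highest.

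The genes differed widely in level and little between libraries. Per transcript length, as TPM deposited by the authors for the 4 groups of 1 library, the mean over these libraries ran from 5.24 TPM for Mrpl17 to 146 TPM for Mrpl52. Mrpl24 (140 TPM), Mrpl33 (131 TPM) and Mrpl30 (124 TPM), all of the large subunit, followed Mrpl52. Mrps25 (7.22 TPM), Mrpl1 (9.40 TPM) and Mrpl35 (10.2 TPM) were the lowest after Mrpl17. The summed TPM of the 78 genes was 4271 in Ly6C- Sca-1+ VM, 3823 in Ly6C- Sca-1- VM, 3643 in true memory and 3429 in naive cells, the same order as the CPM sums. Across the 8 libraries, the standard deviation of a gene's log2 CPM had a median of 0.17. It was smallest for Mrpl10, a protein of the ribosome's stalk base, at 0.06, and largest for Mrps6, at 0.42.

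Which of the genes set Ly6C- apart from Ly6C+ VM cells was tested with the mean of both Ly6C- groups against the mean of both Ly6C+ groups. Of the 78 genes, 13 rose in Ly6C- VM and 0 fell in the edgeR quasi-likelihood test at an adjusted p under 0.05. That is 16.7% of them, near the 12.6% of all genes tested that rose, while 8.88% of all genes fell. By direction they were more one-sided, since 71 of the 78 log2 fold changes were positive, against 49.8% of all genes tested, with a median of 0.24 for the 78 genes and -0.00 for all genes. At an unadjusted p under 0.05, 37 genes were higher and 2 lower, so 47.4% were higher against 19.7% of all genes. DESeq2 called 13 higher and 1 lower (Mrpl24), and limma-voom 14 higher and 0 lower. The shares of all genes called by these tools are not given here, so these counts have no background beside them.

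Both Ly6C- libraries lay above all 4 Ly6C+ libraries for 42 of the 78 genes, against 24.9% of all genes, and 29 of these 42 were not called. Both lay below for 2 genes, Mrpl24 and Mrps10, against 22.9% of all genes. The count of calls changed when a library was left out. It was 1 without Ly6C- Sca-1+ (Mrps6) and 1 without Ly6C- Sca-1- (Mrpl18), where 4.96% and 5.76% of all genes rose. It was 3 and 5 without A or B of Ly6C+ Sca-1+ VM (8.53% and 9.14% of all genes rose). Without A of Ly6C+ Sca-1- VM it was 21, of which 20 rose (25.6%, against 16.6% of all genes) and Mrpl24 fell, and without B it was 22, all higher (28.2%, against 15.1%). Without a Ly6C- library, or without one of Ly6C+ Sca-1+ VM, the called share of the 78 was thus below the share of all genes that rose. Only without a library of Ly6C+ Sca-1- VM was it above. The median log2 fold change stayed positive in each of these settings, from 0.12 without Ly6C- Sca-1+ to 0.35 without Ly6C- Sca-1-. Without a Ly6C- library the contrast changed too. The remaining Ly6C- library was then compared only with the Ly6C+ group of the same Sca-1 class. These 0.12 and 0.35 are therefore the Ly6C differences split by Sca-1, which are given again below, and not a separate check.

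Both subunits had a positive median. In the large subunit 10 of 51 genes rose in Ly6C- VM, with a median of 0.25 and 47 positive fold changes. In the small subunit 3 of 26 rose, with a median of 0.20 and 23 positive. These are 19.6% of large-subunit and 11.5% of small-subunit genes, against 12.6% of all genes tested that rose. Proteins with a bacterial counterpart form the conserved core of the ribosome and surround its RNA, and those found only in mitochondria lie mostly at the surface. Among large-subunit genes, 6 of 30 with a bacterial counterpart rose (median 0.24) and 4 of 21 found only in mitochondria (median 0.25). Among small-subunit genes these were 3 of 16 (median 0.20) and 0 of 10 (median 0.22). At an unadjusted p under 0.05, 3 of these 10 were higher (30%, against 19.7% of all genes). The shares that rose were 20%, 19.0%, 18.8% and 0% in the order of the classes above, beside the 12.6% of all genes. The difference between the classes was not tested.

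**Figure D2:**
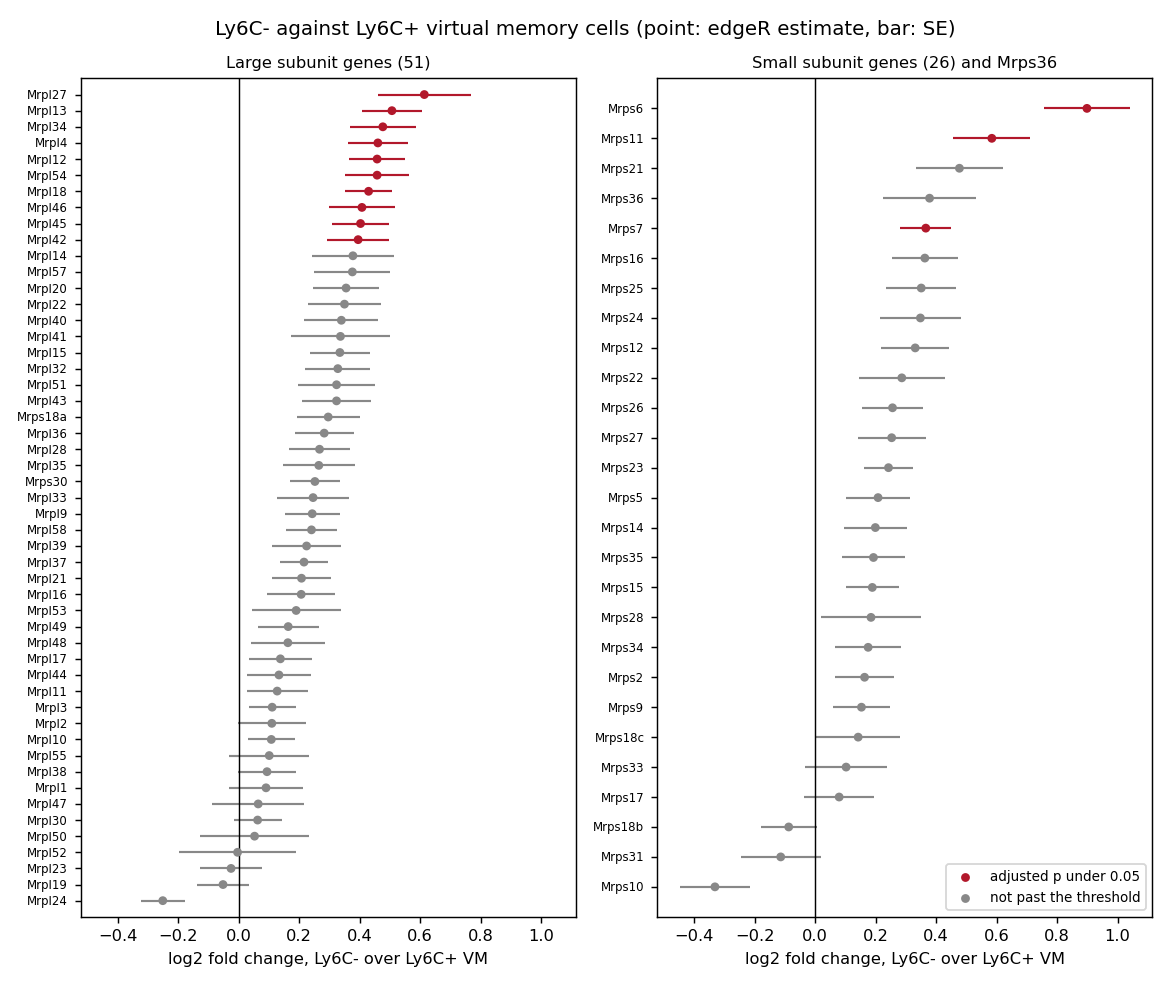
Log2 fold change of each gene in Ly6C- over Ly6C+ VM cells from the edgeR fit, with its standard error as a bar, for the large subunit (left) and for the small subunit with Mrps36 (right). Red marks the 13 genes at an adjusted p under 0.05, all to the right of 0, and 71 of the 78 points lie right of 0.

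Among small-subunit genes, Mrps6 had the largest change of the 78. Its protein pairs with that of Mrps18c on the platform of the small subunit. It had 19.4 and 19.9 CPM in the Sca-1+ and Sca-1- libraries of Ly6C- VM, against 10.8 and 10.5 CPM in the Sca-1+ pair and 11.7 and 9.04 CPM in the Sca-1- pair of Ly6C+ VM libraries. The log2 fold change was 0.90 ± 0.14 (SE, adjusted p = 0.0093). True memory cells had 12.8 CPM and naive cells 10.7 CPM, so only the Ly6C- VM libraries stood high. By GENCODE, 18.8% of the exon bases of Mrps6 are shared on the same strand with Slc5a3, an inositol transporter gene, so reads there could count for either. Slc5a3 itself was at 16.4 and 27.2 CPM in the Sca-1+ and Sca-1- libraries of Ly6C- VM, against 20.2 to 24.0 CPM in Ly6C+ VM, and did not pass (log2 fold change -0.07, adjusted p = 0.66). Mrps6 also shares 36.1% of its exon bases on the same strand with the predicted gene Gm49711.

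Mrps11 and Mrps7 were the other small-subunit genes that rose. Mrps11, on the platform near the exit of the messenger RNA, had 16.2 and 14.2 CPM in the Sca-1+ and Sca-1- libraries of Ly6C- VM. It had 10.2 and 10.7 CPM in the Sca-1+ pair and 9.11 and 10.5 CPM in the Sca-1- pair of Ly6C+ VM libraries, a log2 fold change of 0.58 ± 0.13 (adjusted p = 0.025). The groups did not overlap. Mrps7, of the small subunit's head, had 40.0 and 34.99 CPM in the Sca-1+ and Sca-1- libraries of Ly6C- VM, against 29.1 and 28.3 CPM in the Sca-1+ pair and 30.0 and 28.6 CPM in the Sca-1- pair of Ly6C+ VM libraries (0.37 ± 0.08, adjusted p = 0.030).

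In the large subunit, Mrpl18 had the smallest p. Its protein belongs to the central protuberance, a crest of the large subunit. It had 60.7 and 46.3 CPM in the Sca-1+ and Sca-1- libraries of Ly6C- VM, against 41.3 and 40.8 CPM in the Sca-1+ pair and 39.1 and 36.5 CPM in the Sca-1- pair of Ly6C+ VM libraries (log2 fold change 0.43 ± 0.08, adjusted p = 0.014). True memory cells, at 51.7 CPM, lay between the Ly6C- libraries, and naive cells were at 39.5 CPM. Mrpl13, a core protein of the large subunit, had 29.7 and 26.2 CPM in the Sca-1+ and Sca-1- libraries of Ly6C- VM, against 19.7 and 21.0 CPM in the Sca-1+ pair and 18.2 and 19.7 CPM in the Sca-1- pair of Ly6C+ VM libraries (0.51 ± 0.10, adjusted p = 0.018). It too was high in true memory cells, at 25.5 CPM, against 20.0 CPM in naive cells. By GENCODE, Mrpl13 shares 27.0% of its exon bases with Mtbp on the opposite strand.

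Mrpl12 forms the flexible stalk that recruits translation factors. It had 52.1 and 43.8 CPM in the Sca-1+ and Sca-1- libraries of Ly6C- VM, against 34.1 and 37.2 CPM in the Sca-1+ pair and 36.0 and 32.0 CPM in the Sca-1- pair of Ly6C+ VM libraries (log2 fold change 0.46 ± 0.09, adjusted p = 0.020). True memory cells had 35.8 CPM and naive cells 32.7 CPM, within the Ly6C+ range. Mrpl4, which lines the tunnel that the new protein leaves by, had 62.1 and 52.8 CPM in the Sca-1+ and Sca-1- libraries of Ly6C- VM, against 38.6 to 45.5 CPM in the 4 Ly6C+ libraries (0.46 ± 0.10, adjusted p = 0.024). True memory and naive cells had 48.5 and 41.8 CPM of Mrpl4.

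The remaining 6 large-subunit genes that rose were named after their values were seen, because they passed. Mrpl27, whose bacterial counterpart reaches the peptidyl transferase centre, had 14.5 and 12.0 CPM in the Sca-1+ and Sca-1- libraries of Ly6C- VM, against 7.74 to 9.73 CPM in the 4 Ly6C+ libraries, and the largest fold change of the subunit (0.61 ± 0.15, adjusted p = 0.038). Mrpl34 (0.48 ± 0.11) and Mrpl54 (0.46 ± 0.11) had adjusted p-values of 0.030 and 0.030. Mrpl45, which anchors the ribosome at the inner membrane, changed by 0.40 ± 0.09 (adjusted p = 0.031). Mrpl42 (0.39 ± 0.10, adjusted p = 0.043) and Mrpl46 (0.41 ± 0.11, adjusted p = 0.044) were the closest to the threshold. For all 6 both Ly6C- libraries lay above the 4 Ly6C+ ones.

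**Figure D3:**
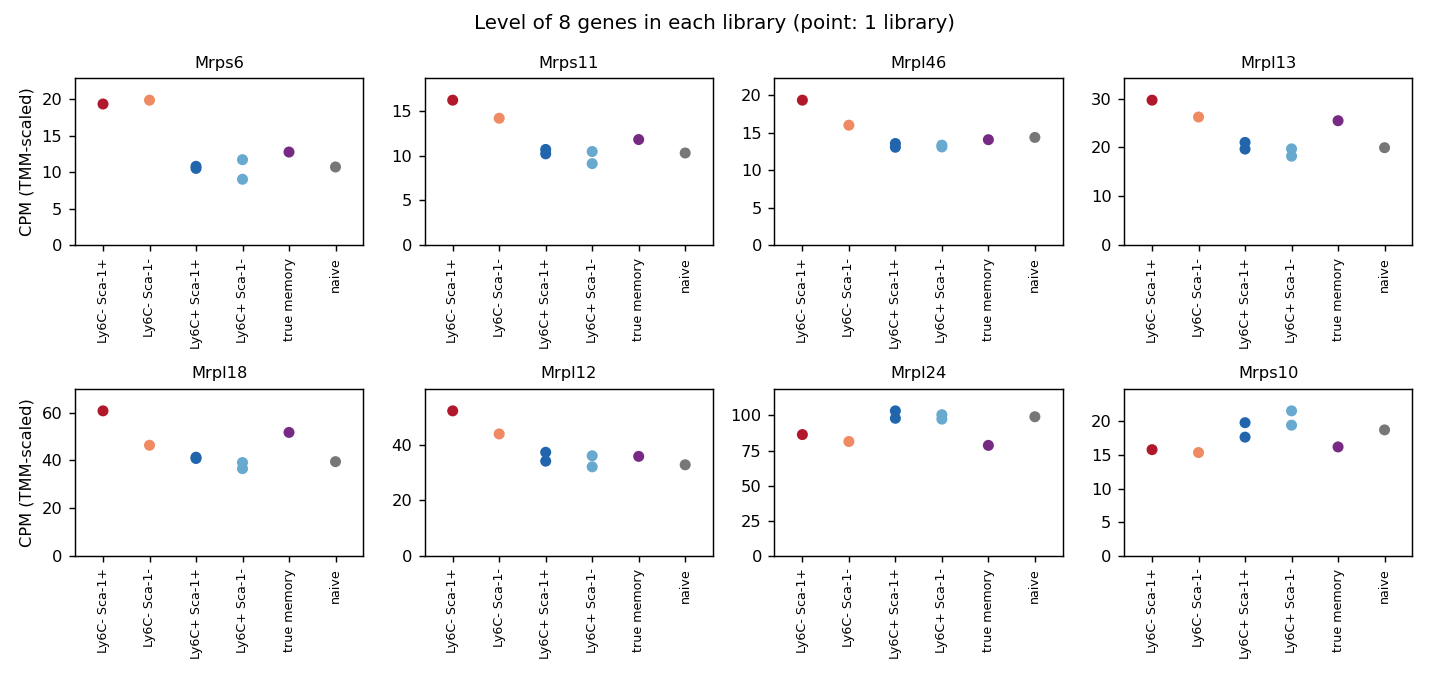
CPM of 8 genes in each library, with the 2 Ly6C+ groups shown as 2 points each, on axes that start at 0. In the first 6 genes both Ly6C- libraries lie above all Ly6C+ ones, and in Mrpl24 and Mrps10 both lie below.

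The genes that ran the other way did not pass in the main edgeR fit of all 8 libraries. Mrpl24, a core protein of the large subunit that helps start its assembly in bacteria, had 86.4 and 81.4 CPM in the Sca-1+ and Sca-1- libraries of Ly6C- VM, against 97.4 to 103 CPM in the 4 Ly6C+ libraries (log2 fold change -0.25 ± 0.07, adjusted p = 0.057 in edgeR and 0.043 in DESeq2). Mrpl24 passed as lower in edgeR under a filter of 1 CPM in 1 library (adjusted p = 0.045) and without Ly6C+ Sca-1- A (0.047). True memory cells had 78.7 CPM and naive cells 99.1 CPM. Mrpl24 shares 38.2% of its exon bases with Rrnad1 on the opposite strand. Mrps10, of the small subunit's head, had 15.8 and 15.4 CPM in the Sca-1+ and Sca-1- libraries of Ly6C- VM, against 17.7 to 21.6 CPM in Ly6C+ VM (-0.33 ± 0.12, adjusted p = 0.097). Mrps10 was picked out after its values were seen. With the column suffix added to the edgeR fit as a replicate block, both genes passed as lower. Mrpl24 was then at -0.22 (adjusted p = 0.0093) and Mrps10 at -0.25 (adjusted p = 0.042). The limits of that block are given in the closing section.

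The paralogs of bacterial protein S18 are split between the subunits, and 0 of 3 passed, though Mrps18a had an unadjusted p under 0.05. Mrps18a, of the large subunit, was at 22.3 and 19.1 CPM in the Sca-1+ and Sca-1- libraries of Ly6C- VM against 15.9 to 17.2 CPM in Ly6C+ VM. Mrps18c was at 17.9 and 12.9 CPM against 12.2 to 15.7 CPM, and Mrps18b at 23.3 and 22.1 CPM against 23.3 to 24.8 CPM. Only for Mrps18a were both Ly6C- libraries above all Ly6C+ ones. Mrpl58, a peptidyl-tRNA hydrolase that frees stalled ribosomes, was at 38.7 and 35.3 CPM in the Sca-1+ and Sca-1- libraries of Ly6C- VM against 30.0 to 33.2 CPM, and did not pass. Mrps30 was at 38.3 and 34.3 CPM against 29.5 to 30.9 CPM in Ly6C+ VM and did not pass. Mrps36, the dehydrogenase subunit, was at 16.9 and 14.3 CPM against 10.3 to 13.9 CPM in Ly6C+ VM, with a log2 fold change of 0.38 ± 0.15 and an adjusted p = 0.14.

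In the authors' own Ly6C- against Ly6C+ comparison, as deposited, 10 of the 78 genes were higher and 0 lower (adjusted p under 0.05). All 10 were among the 13, and both comparisons rest on the same libraries. The share of all genes that passed in the authors' comparison was not counted, so the 10 have no background beside them. The authors' deposited table gave Mrps6 a fold of 1.87 (adjusted p = 8.5e-05). In the authors' deposited table of Ly6C+ Sca-1+ against Ly6C+ Sca-1- cells, 0 of the 78 genes passed.

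The genes lie on 17 of the mouse chromosomes, with 11 on chromosome 11 and 8 on chromosome 17. Head-to-head pairs were common among them: 25 of the 78 (32.1%) have a protein-coding gene that starts within 1000 bases upstream on the other strand, against 14.8% of 11347 protein-coding genes of the table, by GENCODE annotation of GRCm38. One such pair joins 2 of the 78 genes, Mrps11 and Mrpl46, which start 30 bases apart on chromosome 7 and were both called. Mrpl18 starts 37 bases from Tcp1, a chaperonin subunit gene, and Mrpl54 starts 26 bases from Apba3.

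Promoters, taken as 250 bases before to 50 bases after a RefSeq start (GRCm38.p6), were found for 69 of the 78 genes, as 75 windows. The ETS motif CCGGAAG, which the mitochondrial biogenesis factor GABP binds, was in 34.7% of the 75 windows on either strand, against 18.2% of 12065 windows of protein-coding genes of the table and 8.9% of all 32851. The YY1 motif AAGATGGC was in 16.0% of the windows, against 4.5% and 2.7%. The NRF1 core CGCATGCG was in 9.3%, against 3.9% and 1.9%. The E-box CACGTG, in 7 of the 75 windows and 1202 of the 12065, and CCAAT (40.0%, against 38.5% and 37.4%) lay near the shares of other genes of the table. None of these motifs contains another. Of the 10 called genes with a promoter, 3 held the ETS motif, 3 the YY1 motif and 0 the NRF1 core.

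Promoters of 4 called genes are shown: those of the 3 small-subunit genes that rose, Mrps6, Mrps11 (which shares its start region with Mrpl46) and Mrps7, and that of Mrpl18, which had the smallest p in the large subunit. Capitals mark an ETS or YY1 match on either strand, and Mrps6 holds neither. Mrps11 lies at chr7:78782881-78783180 on the plus strand, and its window overlaps that of Mrpl46 by 141 bases. Mrps7 lies at chr11:115603890-115604189 on the plus strand, Mrpl18 at chr17:12916042-12916341 on the minus strand and Mrps6 at chr16:92058086-92058385 on the plus strand.
Mrps11: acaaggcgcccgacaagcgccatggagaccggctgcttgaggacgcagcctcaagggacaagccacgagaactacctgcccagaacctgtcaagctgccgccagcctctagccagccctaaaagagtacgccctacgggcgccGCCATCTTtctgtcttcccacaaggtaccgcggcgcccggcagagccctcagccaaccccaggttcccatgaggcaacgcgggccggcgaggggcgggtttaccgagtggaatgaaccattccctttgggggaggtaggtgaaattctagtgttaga
Mrps7: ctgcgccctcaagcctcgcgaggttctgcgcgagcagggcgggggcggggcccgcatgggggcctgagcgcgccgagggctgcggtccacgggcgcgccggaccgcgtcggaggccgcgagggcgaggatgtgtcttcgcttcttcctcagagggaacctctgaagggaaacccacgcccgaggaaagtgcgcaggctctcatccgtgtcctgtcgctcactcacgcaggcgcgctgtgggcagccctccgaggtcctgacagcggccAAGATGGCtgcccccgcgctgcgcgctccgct
Mrpl18: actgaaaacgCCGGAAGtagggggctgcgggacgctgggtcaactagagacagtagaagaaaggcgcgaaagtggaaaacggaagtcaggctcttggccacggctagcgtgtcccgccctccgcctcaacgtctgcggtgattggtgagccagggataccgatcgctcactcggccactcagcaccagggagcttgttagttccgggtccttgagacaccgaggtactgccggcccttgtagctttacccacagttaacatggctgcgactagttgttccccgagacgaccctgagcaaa
Mrps6: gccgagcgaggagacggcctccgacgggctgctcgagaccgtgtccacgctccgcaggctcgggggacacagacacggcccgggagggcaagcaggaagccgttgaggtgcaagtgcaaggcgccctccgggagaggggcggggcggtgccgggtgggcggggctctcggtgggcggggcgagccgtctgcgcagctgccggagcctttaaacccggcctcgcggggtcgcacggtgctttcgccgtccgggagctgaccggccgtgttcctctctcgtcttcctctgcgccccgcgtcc
Mrps11 and Mrps7 each carry a YY1 match and Mrpl18 an ETS match. Mrps6, which had the largest change of the 78 genes, has no ETS, YY1 or NRF1 match in this window.

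Whether Sca-1 marks a difference was seen within Ly6C- and within Ly6C+ VM cells. In Ly6C- VM, with 1 library on each side and so no test, 73 of the 78 genes were higher in the Sca-1+ library, with a median log2 difference of 0.23, against 53.8% and 0.03 for all genes. The shift was not particular to the 78 genes. Cytosolic ribosomal protein genes were 93.9% positive in this pair (median 0.17), and nuclear oxidative phosphorylation genes 92.1% (median 0.22). Of the 78, only Mrpl40, of the large subunit, was past 1.5-fold. It had 30.4 CPM in Ly6C- Sca-1+ and 20.1 CPM in Ly6C- Sca-1- VM, a log2 difference of 0.60. That is 1 of 78, against 5.65% of all genes at 5 CPM or more in both libraries. Mrpl41, Mrpl51 and Mrps22 followed at 0.58, 0.56 and 0.53. Mrpl36, Mrps17, Mrps6 and Mrpl53 had the lowest differences, -0.15, -0.07, -0.04 and -0.01. Mrps6 was therefore as high in Ly6C- Sca-1- as in Ly6C- Sca-1+ VM, unlike most of the genes. By GENCODE, Mrpl53 shares 100% of its exon bases on the same strand with Gm42688, so its reads could count for either.

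In Ly6C+ VM, with 2 libraries on each side, 0 of 78 genes passed the edgeR test, 0 had an unadjusted p under 0.05, and DESeq2 and limma-voom called 0. Of all genes 0.00662% passed. The median log2 fold change was 0.03, and 52 of 78 were positive, against -0.01 and 48.4% for all genes. Mrpl42 had the smallest p, with 25.8 and 28.04 CPM in the Sca-1+ pair and 22.4 and 25.7 CPM in the Sca-1- pair of Ly6C+ VM libraries (0.16 ± 0.12, adjusted p = 1.00), so the lowest Sca-1+ value lay just above the highest Sca-1- one. The Sca-1 difference in Ly6C- minus that in Ly6C+ VM was positive for 71 of 78 genes (median 0.22), against 53.4% of all genes (median 0.02). It was also positive for 95.1% of cytosolic ribosomal protein genes and 92.1% of nuclear oxidative phosphorylation genes (medians 0.17 and 0.18). None of the 78 passed and 0% of all genes did, and 2 of the 78 had an unadjusted p under 0.05 (Mrps23 and Mrpl16), against 5.08% of all genes. DESeq2 and limma-voom called 0 of the 78. Mrps23 had 54.1 CPM in Ly6C- Sca-1+ and 43.7 CPM in Ly6C- Sca-1- VM, while Ly6C+ VM had 37.8 and 41.1 CPM in the Sca-1+ pair and 42.9 and 42.7 CPM in the Sca-1- pair. The difference of differences was 0.43 ± 0.16 (adjusted p = 0.98).

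Split by Sca-1, the Ly6C difference had a higher median between Sca-1+ groups, and the test of the difference of differences above, with 0 calls, bears on this too. Between Sca-1+ groups 75 of 78 genes were higher in Ly6C- VM, with a median log2 difference of 0.36, against 50.8% of all genes. Between Sca-1- groups 59 of 78 were higher, with a median of 0.12, against 50.7% of all genes. The differences between A and B libraries of 1 group, for comparison, had a median of 0.06 in Ly6C+ Sca-1+ and 0.02 in Ly6C+ Sca-1- VM. Their median size was 0.11 and 0.16. The Ly6C difference had a median size of 0.36 between Sca-1+ groups and 0.15 between Sca-1- groups. The latter was thus no larger than that between A and B of Ly6C+ Sca-1- VM. Mrps6 was at 0.86 and 0.95 between the Sca-1+ and the Sca-1- groups. Mrps11 was at 0.63 and 0.54, and Mrpl13 at 0.55 and 0.47. For Mrpl40 the values were 0.63 and 0.05, and for Mrpl41 0.69 and 0.01, so these genes were high in the Ly6C- Sca-1+ library alone.

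**Figure D4:**
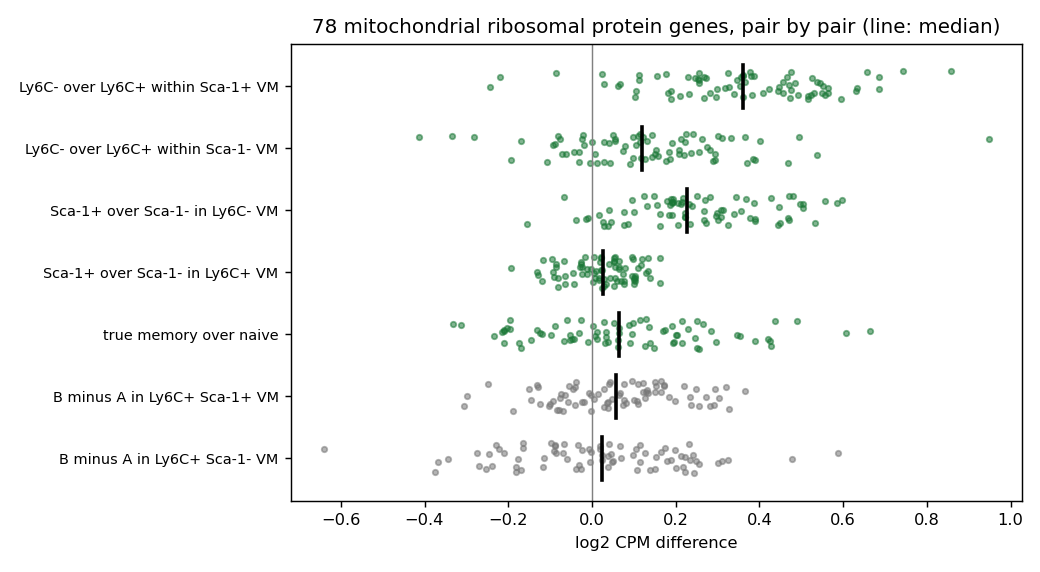
Log2 CPM differences of the 78 genes between pairs of groups, with each point 1 gene and the bar the median, and in grey the differences between the B and A libraries of the replicated groups. The Ly6C difference within Sca-1+ cells has its median at 0.36, the Sca-1 difference within Ly6C- cells at 0.23, and the A and B differences at 0.06 and 0.02.

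How VM cells as a whole stood to the other populations was tested with the mean of the 4 VM groups. Against naive cells, 0 of 78 genes passed the edgeR test, where 5.39% of all genes did. Of the 78, 57 were positive (median log2 fold change 0.14), against 50.2% of all genes (median 0.00). At an unadjusted p under 0.05, 7 passed, all higher in VM (8.97%, against 11.7% of all genes higher). DESeq2 called 1 (Mrps25) and limma-voom 0. Mrpl16 and Mrps25 had the smallest p. Mrpl16, of the large subunit's core, had 18.3 and 13.2 CPM in the Sca-1+ and Sca-1- libraries of Ly6C- VM, 12.9 to 14.3 CPM in the 4 Ly6C+ libraries, 15.2 CPM in true memory and 9.59 CPM in naive cells (VM over naive 0.60 ± 0.15, adjusted p = 0.087). Mrps25, a small-subunit protein found only in mitochondria, had 26.1 and 22.4 CPM in the Sca-1+ and Sca-1- libraries of Ly6C- VM, 17.4 to 20.5 CPM in Ly6C+ VM, 21.3 CPM in true memory and 14.0 CPM in naive cells (0.61 ± 0.16, adjusted p = 0.090). For both genes the naive library was the lowest of the 8. Without Ly6C+ Sca-1- A both passed (adjusted p = 0.045 for Mrpl16 and 0.014 for Mrps25), and so they did without Ly6C+ Sca-1- B (0.035 and 0.020). By GENCODE 58.2% of the exon bases of Mrps25 lie opposite Nr2c2.

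Against true memory cells, a comparison that shares all VM libraries with the one before, 0 of 78 genes passed (4.57% of all genes did), 0 had an unadjusted p under 0.05, and DESeq2 and limma-voom called 0. The median of the 78 was 0.07, with 56 positive, against -0.01 and 47.3% for all genes. Mrpl24 had the smallest p (0.22 ± 0.09, adjusted p = 0.38). True memory over naive cells, with 1 library each, had a median of 0.06 and 51 positive, against -0.01 and 49.4% for all genes. Past 1.5-fold were 2 of 78 genes, Mrpl16 (0.67) and Mrps25 (0.61), against 9.77% of all genes at 5 CPM or more in both. Mrpl51 (0.49) and Mrps21 (0.44) followed, and Mrpl24 (-0.33) and Mrpl23 (-0.31) were the lowest.

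Genes that work with the mitochondrial ribosome did not all follow it in Ly6C- against Ly6C+ VM cells. In this comparison 12.6% of all genes tested rose and 8.88% fell. Of 5 ribosome proteins named otherwise, 2 rose. These were Dap3, a GTP-binding protein of the small subunit (81.8 and 74.2 CPM in the Sca-1+ and Sca-1- libraries of Ly6C- VM against 59.7 to 63.7 CPM in Ly6C+ VM; log2 fold change 0.34 ± 0.07, adjusted p = 0.023), and Aurkaip1, also of the small subunit (0.30 ± 0.08, adjusted p = 0.049). All 5 were positive, with a median of 0.30. Of 24 assembly factors, 1 rose and 2 fell, with 16 negative and a median of -0.05. The helicase gene Ddx28 rose (11.4 and 9.27 CPM against 5.87 to 7.57 CPM, 0.62 ± 0.16, adjusted p = 0.041). Mrm1, a methyltransferase of the large ribosomal RNA, fell (17.1 and 16.1 CPM in Ly6C- VM against 24.6 to 27.4 CPM in Ly6C+ VM, -0.66 ± 0.10, adjusted p = 0.0079). The assembly GTPase gene Gtpbp10 fell too (11.1 and 11.6 CPM in Ly6C- VM against 15.2 to 18.1 CPM in Ly6C+ VM, -0.60 ± 0.13, adjusted p = 0.024).

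Of 14 translation factors 1 rose, the elongation factor gene Tufm (86.4 and 78.6 CPM in Ly6C- VM against 63.99 to 69.2 CPM in Ly6C+ VM, log2 fold change 0.31 ± 0.07, adjusted p = 0.028), and the median was -0.05. Of 20 mitochondrial aminoacyl-tRNA synthetase genes, which load transfer RNAs for this ribosome, 5 fell and 0 rose, with 16 negative and a median of -0.11. At an unadjusted p under 0.05, 6 were lower and 0 higher in edgeR. Ears2, for glutamate, had 13.4 and 13.1 CPM in the Sca-1+ and Sca-1- libraries of Ly6C- VM against 19.7 to 20.9 CPM in Ly6C+ VM (-0.62 ± 0.10, adjusted p = 0.011). Wars2, for tryptophan, fell by 0.51 ± 0.11, Nars2, for asparagine, by 0.55 ± 0.13, and Mars2, for methionine, by 0.41 ± 0.11. Lars2, for leucine, fell by 2.14 ± 0.39 but its level is uncertain, since A and B of Ly6C+ Sca-1+ VM had 844 and 349 CPM. Of 9 genes of mitochondrial DNA replication and transcription 1 fell, the elongation factor gene Tefm (-0.93 ± 0.20, adjusted p = 0.024).

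Of 10 measured regulators of mitochondrial biogenesis 3 fell and 0 rose. These were Pprc1 (91.1 and 89.9 CPM in Ly6C- VM against 125 to 137 CPM in Ly6C+ VM, log2 fold change -0.55 ± 0.08, adjusted p = 0.0067) and Ppargc1b (25.8 and 27.0 CPM against 39.1 to 44.5 CPM, -0.65 ± 0.10, adjusted p = 0.0083), coactivators of the PGC-1 family, and Gabpb2 (-0.35 ± 0.08, adjusted p = 0.035), a subunit of GABP. At an unadjusted p under 0.05, 2 regulators were higher and 4 lower. Nrf1, a transcription factor for mitochondrial ribosomal protein and respiratory genes, was at 0.27 ± 0.08 (adjusted p = 0.055). So 71 of 78 ribosomal protein genes were positive, while 16 of 20 synthetase genes were negative, in the same libraries. The regulators, with 6 of 10 negative, lay near all genes tested, of which 7587 of 15112 were negative.

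The ribosomal RNAs of mitochondria were picked out after their values were seen, and the library kit selects messenger RNA. The small ribosomal RNA mt-Rnr1 was at 266.7 and 246.1 CPM in the Sca-1+ and Sca-1- libraries of Ly6C- VM, against 98.8 and 166 CPM in the Sca-1+ pair and 90.3 and 151 CPM in the Sca-1- pair of Ly6C+ VM libraries (log2 fold change 1.02 ± 0.26, adjusted p = 0.041). The large one, mt-Rnr2, was at 528 and 654 CPM in Ly6C- VM against 591 to 643 CPM in Ly6C+ VM and did not pass (-0.07 ± 0.08, adjusted p = 0.56). Against naive cells (316 CPM), mt-Rnr2 rose in VM by 0.93 ± 0.11 (adjusted p = 0.0074), and against true memory cells (416 CPM) by 0.53 ± 0.10 (adjusted p = 0.046).

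Other large gene groups of the same libraries are given for scale, beside 12.6% of all genes tested that rose in Ly6C- VM and 8.88% that fell. Of 76 nuclear genes for oxidative phosphorylation, whose complexes also hold the products of this ribosome, 31 rose in Ly6C- VM (median 0.30, 75 positive). Of 82 cytosolic ribosomal protein genes 26 fell and 0 rose (median -0.29, with 46 lower and 1 higher at an unadjusted p under 0.05), so the genes of both ribosomes had medians of opposite sign. The cytosolic ribosomal protein genes also differed between libraries of 1 group. Their B minus A difference had a median of -0.18 in Ly6C+ Sca-1- VM and -0.09 in Ly6C+ Sca-1+ VM. All 38 cell cycle genes rose in Ly6C- VM, with a median of 2.40. Their summed level was 4142 CPM in Ly6C- Sca-1+ and 2644 CPM in Ly6C- Sca-1- VM, against 1209 and 1340 CPM in the Sca-1+ pair and 899 and 954 CPM in the Sca-1- pair of Ly6C+ VM libraries. True memory cells had 3097 CPM and naive cells 739 CPM of cell cycle transcripts. The cell cycle sum and the summed mitochondrial ribosomal protein level were both highest in Ly6C- Sca-1+ VM. True memory cells had the second highest cell cycle sum. Their mitochondrial ribosomal protein sum lay within the range of the Ly6C+ libraries on library totals. With TMM scaling, which the cell cycle sums also used, it was 1938 CPM, just above the 1873 to 1933 CPM of the Ly6C+ libraries. The part of cycling cells in the levels of the 78 genes was not tested.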

How the data were processed

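The authors made stranded mRNA libraries (TruSeq) and sequenced them as paired-end reads of 101 bases, with quality checks in FastQC 0.11.7 and trimming in Trimmomatic 0.38, per the labels' protocols. The genome build mm10, R 3.6.0 and edgeR are listed in the submitters' processing notes; the sources used here do not name the aligner or counter behind the table. The authors deposited raw counts per gene, which were used for every test, and TPM values, used only for the 4 groups of 1 library. The authors also deposited comparisons of their own, each as a score (a fold change with a minus sign for lower genes) with an adjusted p-value. Of the per-sample values, 24 columns were not used. The replicated libraries are called A and B because the columns do not carry the numbers of the labels.

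Genes were filtered with filterByExpr by group (15112 tested, all 78 among them), scaled with TMM, and fitted in edgeR 4.0.16 (R 4.3.3) by the quasi-likelihood method, with 1 coefficient for each of the 6 groups. The spread came from the Ly6C+ groups, which left 2 residual degrees of freedom (prior 4.14, common biological coefficient of variation 0.151), and lone libraries were assumed to vary like them. P-values were adjusted by Benjamini-Hochberg over all genes tested and called under 0.05. A standard error is the size of the log2 fold change divided by the root of its F statistic. Pairs of lone libraries got log2 CPM differences (prior count 2) without a p-value. The summed level used library totals. The fit was also run on simulated data in which all libraries varied alike. That run therefore cannot show whether the lone libraries vary like the replicated ones.

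Named genes were the 6 with the smallest p per comparison, the 4 highest and 4 lowest in pairs of lone libraries and in TPM, those with special roles, and the 3 with the smallest p in each other list. Some genes were named outside these rules, among them Mrps7, Mrpl10, Nars2, Mars2 and Nrf1. The genes and lists were chosen with earlier results of these data known. Exon overlaps came from GENCODE vM21 (GRCm38) and promoters from RefSeq (GRCm38.p6). Alternatives were DESeq2 1.42.0, limma-voom 3.58.1, other scalings, filters and prior counts, a minimum fold of 1.2 and leaving out each library.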

Additional observations from a re-analysis of the deposited data

How the results depend on the processing

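Of the results tested under other processing, 0 changed direction. The genes called in Ly6C- against Ly6C+ VM cells numbered 13. Other tools, scalings and filters gave 12 to 14. Mrpl24 was the 1 lower gene, in DESeq2 and under a filter of 1 CPM in 1 library. The shares of all genes under these settings are not given. A required minimum fold of 1.2 gave 1, Mrps6. Leaving out 1 library at a time gave 1 to 22, and a median log2 fold change of 0.12 to 0.35; with library totals as the only scaling the median was 0.29. Where the library left out was a Ly6C- one, the contrast also changed to 1 Sca-1 class, as described above. For the difference between Sca-1 differences, library totals gave a median of 0.15. In VM against naive cells DESeq2 called 1 gene, and leaving out 1 library gave 0 to 2. For Sca-1+ over Sca-1- in Ly6C- VM, a prior count of 0.5 put 2 genes past 1.5-fold and library totals 0, with a median of 0.17. Of 84 values of the 6 named genes across settings in the Ly6C comparison, 69 kept their side of the threshold and 15 lost it, all when a library was left out; the minimum fold, under which 5 of the 6 did not pass, is not among these settings. Mrps6 and Mrpl18 passed in 13 of these 14 settings.

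The labels number the Ly6C+ libraries of both groups 1 and 2, but the columns carry only a suffix whose meaning is not stated. Differences of B from A in both groups correlated at r = 0.35 across all 15112 genes and at 0.66 across the 78, which are not independent. With the suffix as a replicate block, 46 of the 78 genes were called in the Ly6C comparison (44 higher, or 56.4%, against 22.8% of all genes, and 2 lower, with 6601 genes called in all). That is further from the share of all genes than without the block. The 2 lower genes were Mrpl24 and Mrps10. In the block the lone libraries, both Ly6C- ones among them, were placed with the A libraries. The labels do not say that they belong together. The Ly6C difference was thus taken against the A level of the Ly6C+ groups, so these counts are not those of a matched design. The block called 14 as higher in VM over naive, where 14.5% of all genes were higher, and 1 (Mrps5) as higher in VM over true memory, where 5.18% were. With only 2 such pairs this pairing could not be told from a shared suffix. Each lone library limits the depth of replication, not of sequencing: every one of the 78 genes had at least 386 counts in each library. Scaling moved the median of all genes by less than 0.1 on the log2 scale.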
